A study of Homo sapiens with 4 samples.

Results

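The 5 plasminogen activator system genes described here were measured in HCT116, a human colorectal carcinoma cell line whose genotype the labels give as wild type. They are the 2 plasminogen activators PLAU and PLAT, the urokinase receptor PLAUR, and the serpins SERPINE2 and SERPINB5. The genes were listed by their role, with earlier results of these data known. All 5 were found by Ensembl ID among the 20263 genes of the count table and passed the filter on low counts. The DMSO group received the vehicle at 0.1% and the HJ-4 group received 32 µM HJ-4, a derivative of piperine, and both were collected after 24 h. That dose is given by the labels and by the study's methods, whereas the legend of its transcriptome figure names a lower one. Each group had 2 libraries, whereas the study's methods speak of biological triplicates, and no label says that the 2 libraries came from separate cultures. The p-values therefore rest on a spread between libraries that could be technical only. The study tested adhesion, migration and invasion of these cells and reported that HJ-4 reduced each of them. The question asked of the RNA was whether genes of pericellular proteolysis differed between HJ-4 and DMSO. The RNA gives neither protein levels nor protease activity, and a link to those assays was not tested.

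Urokinase, the product of PLAU, and tissue plasminogen activator, the product of PLAT, are serine proteases that cut plasminogen into plasmin, a broad protease that dissolves fibrin and degrades matrix proteins. The urokinase receptor, encoded by PLAUR, is tethered to the membrane by a lipid anchor and holds urokinase at the cell surface. Inhibitory serpins such as protease nexin 1 (SERPINE2) trap the activators in inactive complexes, while maspin (SERPINB5) belongs to the serpin family without acting as a typical protease inhibitor. In colorectal tumours the system is known for its part in invasion.

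The libraries held 29769568 to 34359889 counts, with both HJ-4 libraries deeper than both DMSO libraries. Levels are given as CPM, the counts of a gene relative to a fixed library size, scaled by TMM, a factor that evens out differences in composition between libraries. The 5 genes had 573 to 7435 counts in a library, for which counting error alone was 1.16% to 4.18% of a value. Marker genes were read for cell type, which cannot tell HCT116 from other epithelial lines. The epithelial markers EPCAM and KRT8 were at 244 to 268 CPM and at 1700 to 1900 CPM, whereas the differentiation markers CDX1 and VIL1 had at most 4 counts. From the same list, KRT20 had 0 to 19 counts, CDH17 had 5 to 27 counts and CDX2 was at 11.5 to 13.9 CPM. Of 9 fibroblast markers 7 had at most 10 counts in every library, and the list summed to 59.3 to 63.1 CPM, nearly all from COL1A1. Of 8 endothelial markers 6 had at most 10 counts, with a sum of 1.62 to 2.23 CPM. Of 8 immune markers 4 had at most 10 counts, among them PTPRC with at most 2, and the list summed to 35.5 and 42.6 CPM with DMSO and to 49.6 and 53.7 CPM with HJ-4, mostly from CD68. The part of these genes in the results was not tested. In bulk RNA, more RNA per cell and more cells that express a gene cannot be told apart.

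The mean level of each of the 5 genes was higher with HJ-4 than with DMSO, and none passed an adjusted p of 0.05 in edgeR's quasi-likelihood test. Their log2 fold changes, HJ-4 over DMSO, ranged from 0.15 to 0.85, with a median of 0.54 beside 0.00 for the 14044 genes tested. At an unadjusted p under 0.05, PLAU, PLAT, SERPINB5 and PLAUR were higher, which are 4 of the 5, beside 7.93% of all genes tested. Because the 5 genes were chosen with earlier results of these data known, the values set beside all genes are descriptive only. Over all genes, edgeR called 7 of 14044 at the adjusted threshold (0.0498%). In each of the 5, the lower HJ-4 library exceeded the higher DMSO library, which held for 25.2% of all genes tested. DESeq2's Wald test called PLAU, PLAT, PLAUR and SERPINB5 higher at an adjusted p under 0.05, beside 2.3% of all genes. The plot of CPM by library shows the 5 genes side by side.

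**Figure D1:**
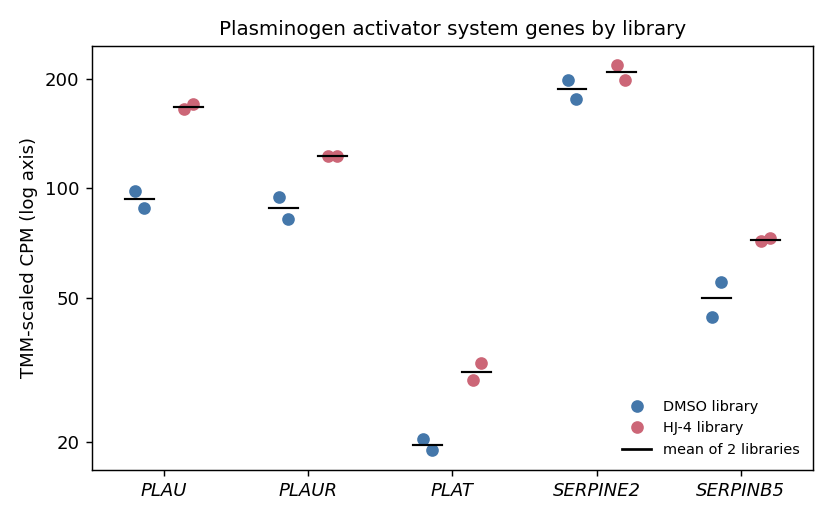
TMM-scaled CPM (log axis) of the 5 genes in each library. Points are libraries (blue, DMSO and red, HJ-4) and black lines are means of 2 libraries. PLAU was at 88.3 and 98.2 CPM with DMSO and at 165 and 170 CPM with HJ-4, while the SERPINE2 libraries of the 2 groups nearly touch.

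Among the activators, PLAU showed the largest difference of the 5 genes. Urokinase mRNA stood at 98.2 and 88.3 CPM with DMSO, and at 165 and 170 CPM with HJ-4. The groups were well apart, since the lower HJ-4 library exceeded the higher DMSO library by 0.75 on the log2 scale and libraries of a group differed by at most 0.15. The means were 93.2 ± 6.96 CPM (SD, n = 2) and 168 ± 3.17 CPM (SD, n = 2), a log2 fold change of 0.85 (standard error 0.09, 95% interval 0.61 to 1.08, adjusted p = 0.079 from edgeR). On the linear scale this is 1.8-fold, with an interval of 1.53 to 2.11. PLAU ranked 40 of 14044 by p, and 2.09% of genes had a larger log2 fold change. Without DMSO replicate 1 PLAU passed, with an adjusted p of 0.043 from edgeR and a log2 fold change of 0.92, beside 0.612% of all genes called in that fit. PLAU lies on chromosome 10 of GRCh38 from 73909177 to 73917496 on the plus strand in GENCODE v44. There it shares 915 exon bases with the lncRNA gene C10orf55 on the opposite strand. C10orf55 had 37 to 91 counts, which is 1.3% to 1.61% of the PLAU counts of the same library. Without knowledge of whether the counting used strand, reads of these genes cannot be told apart where they overlap.

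PLAT, the gene of the second activator, was the least abundant of the 5 and had the next largest fold change. It was at 20.4 and 19 CPM with DMSO and at 29.6 and 33 CPM with HJ-4. Again the groups did not overlap, with a gap of 0.54 on the log2 scale against a range of 0.1 within the DMSO libraries and 0.15 within the HJ-4 libraries. The log2 fold change was 0.67 (standard error 0.11, 95% interval 0.39 to 0.94, adjusted p = 0.13 from edgeR), or 1.59-fold. Of all genes tested, 3.49% had a larger log2 fold change. PLAT lies on the minus strand of chromosome 8 from 42174718 to 42207709.

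PLAUR, which encodes the receptor that concentrates urokinase on the membrane, was at 94.6 and 82.1 CPM with DMSO. Both HJ-4 libraries were at 123 CPM. The HJ-4 libraries were nearly identical and lay 0.38 above the higher DMSO library on the log2 scale, while the DMSO libraries were 0.2 apart. Its log2 fold change was 0.48 (standard error 0.1, 95% interval 0.22 to 0.74, adjusted p = 0.17 from edgeR), or 1.39-fold. Of all genes tested, 6.72% had a larger log2 fold change. PLAUR is on the minus strand of chromosome 19 from 43646095 to 43670547.

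Of the serpins, SERPINB5 had the larger log2 fold change and SERPINE2 the smallest of the 5 genes. SERPINB5, the maspin gene and a known target of p53, was at 44.2 and 55.3 CPM with DMSO and at 71.4 and 73.1 CPM with HJ-4. Here the DMSO libraries were 0.32 apart on the log2 scale, the widest replicate range among the 5 genes, and the groups were separated by 0.37. The log2 fold change was 0.54 (standard error 0.13, 95% interval 0.2 to 0.87, adjusted p = 0.2 from edgeR), or 1.45-fold, and it was 0.39 without DMSO replicate 1 and 0.71 without DMSO replicate 2. SERPINE2, whose product inhibits urokinase, tissue plasminogen activator and thrombin, was the most abundant of the 5 in CPM. Its level was 198 and 176 CPM with DMSO and 218 and 199 CPM with HJ-4. The lower HJ-4 library and the higher DMSO library thus lay side by side, with a gap of 0.00 on the log2 scale, and the spread within groups was as large as the difference between them. The log2 fold change was 0.15 (standard error 0.1, 95% interval -0.1 to 0.41, adjusted p = 0.49 from edgeR). The interval leaves room for a fold between 0.931 and 1.33. It was 0.07 without DMSO replicate 2 and 0.24 without DMSO replicate 1. SERPINB5 is on the plus strand of chromosome 18 from 63476958 to 63505085, and SERPINE2 on the minus strand of chromosome 2 from 223975045 to 224039318.

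Levels of different genes were compared per kilobase of annotated exon, the union of all exons of a gene in GENCODE v44. That length is 8957 bases for SERPINE2, 4457 for PLAUR and 2949 for PLAU. It can exceed the transcripts present in these cells, which were not measured, so the order between genes depends on it. In CPM the mean of SERPINE2 (187 with DMSO, 209 with HJ-4) was above those of PLAU (93.2, 168) and PLAUR (88.4, 123). With DMSO the order was PLAU at 31.6 ± 2.36, SERPINE2 at 20.9 ± 1.72, PLAUR at 19.8 ± 1.98, SERPINB5 at 13.3 ± 2.08 and PLAT at 2.53 ± 0.119 CPM per kb (SD, n = 2 each). SERPINE2 (22.1 and 19.7) and PLAUR (21.2 and 18.4) overlapped across libraries, although PLAUR was below SERPINE2 within each of them. With HJ-4 the order was PLAU at 56.9 ± 1.07, PLAUR at 27.6 ± 0.0898, SERPINE2 at 23.3 ± 1.54, SERPINB5 at 19.3 ± 0.333 and PLAT at 4.03 ± 0.305 CPM per kb (SD, n = 2 each), and no neighbours in that order overlapped. On this scale the receptor mRNA was slightly below SERPINE2 in each DMSO library and above it in each HJ-4 library. In CPM it was below SERPINE2 in every library. As a level per length within a library, PLAUR over SERPINE2 was 0.959 and 0.935 with DMSO and 1.14 and 1.24 with HJ-4.

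**Figure D2:**
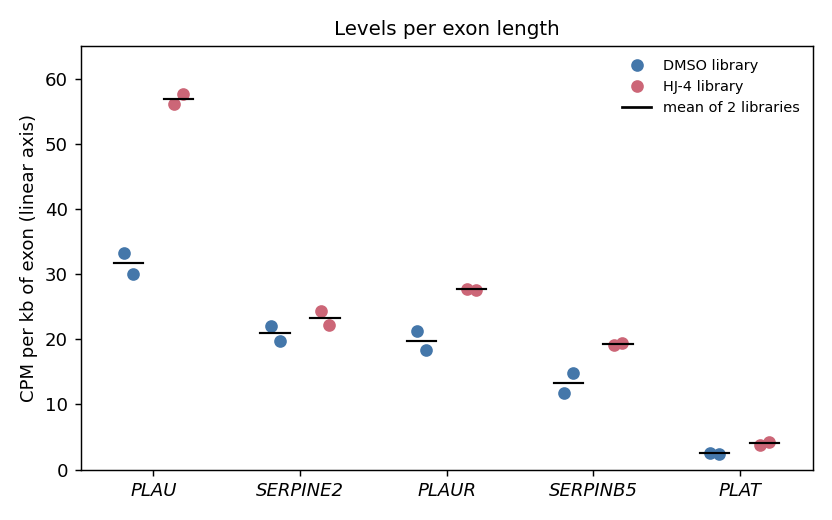
CPM per kb of annotated exon (linear axis from 0) in each library, for the 5 genes in their order with DMSO. Points are libraries and black lines are means of 2 libraries. On this scale PLAU, at 31.6 with DMSO and 56.9 with HJ-4 in the means, stands above the other genes in both groups. The length is the union of all annotated exons of a gene.

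Ratios within a library set the activators against their receptor and inhibitors. They use the levels per length, so their size depends on the exon lengths, whereas their change between groups does not. PLAU over PLAUR was 1.57 and 1.63 with DMSO and 2.02 and 2.09 with HJ-4. PLAU over SERPINE2 was 1.5 and 1.52 with DMSO and 2.3 and 2.6 with HJ-4. Both ratios were higher in both HJ-4 libraries, by more than the spread within either group. PLAU over SERPINB5 (2.82 and 2.03 with DMSO, 2.94 and 2.95 with HJ-4) and PLAU over PLAT (12.7 and 12.2 with DMSO, 14.7 and 13.6 with HJ-4) were also higher with HJ-4, but for SERPINB5 the DMSO libraries differed from each other more than the group means did. The two-sided exact permutation test of each of these ratios, and of PLAUR over SERPINE2, gave p = 0.333, which is the smallest p that 2 libraries against 2 can give.

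PLG, the gene of the plasminogen substrate, had 0 counts in all 4 libraries, where a count of 0 allows up to 3 counts or 0.0881 to 0.0997 CPM in a library. VTN, which encodes the matrix ligand vitronectin, had at most 5 counts. SERPINB2, the gene of plasminogen activator inhibitor 2, had 12 and 0 counts with DMSO and 14 in each HJ-4 library, and SERPINF2, the gene of the plasmin inhibitor antiplasmin, was at 3.57 and 3.92 CPM with DMSO and 3.14 and 4.14 CPM with HJ-4.

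Among the 23 other inhibitors, plasminogen receptors, cofactors and clearance receptors of the system, 18 were tested and none passed the adjusted threshold. At an unadjusted p under 0.05 in edgeR, 3 were higher, among them SERPINA5 and SERPINB8, and ENO1 was lower. Of all genes tested, 7.93% were higher and 7.93% lower at that threshold. The median log2 fold change of the 18 was -0.03, with 7 values above 0 and 11 below. SERPINA5, the protein C inhibitor, which also inhibits urokinase, was at 7.8 and 7.38 CPM with DMSO and at 11.3 and 11.9 CPM with HJ-4 (log2 fold change 0.61). SERPINB8, chosen after its values were seen, had a log2 fold change of 0.42. ENO1, a glycolytic enzyme that also serves as a plasminogen receptor on the cell surface, was at 4720 and 4480 CPM with DMSO and at 3040 and 3380 CPM with HJ-4, and its log2 fold change was -0.52 (edgeR, adjusted p = 0.15). The clearance receptor gene LRP1, at 48.3 to 54.4 CPM, and the plasminogen receptor gene PLGRKT, at 17.4 to 19.3 CPM, overlapped between groups and were chosen after their values were seen.

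**Figure D3:**
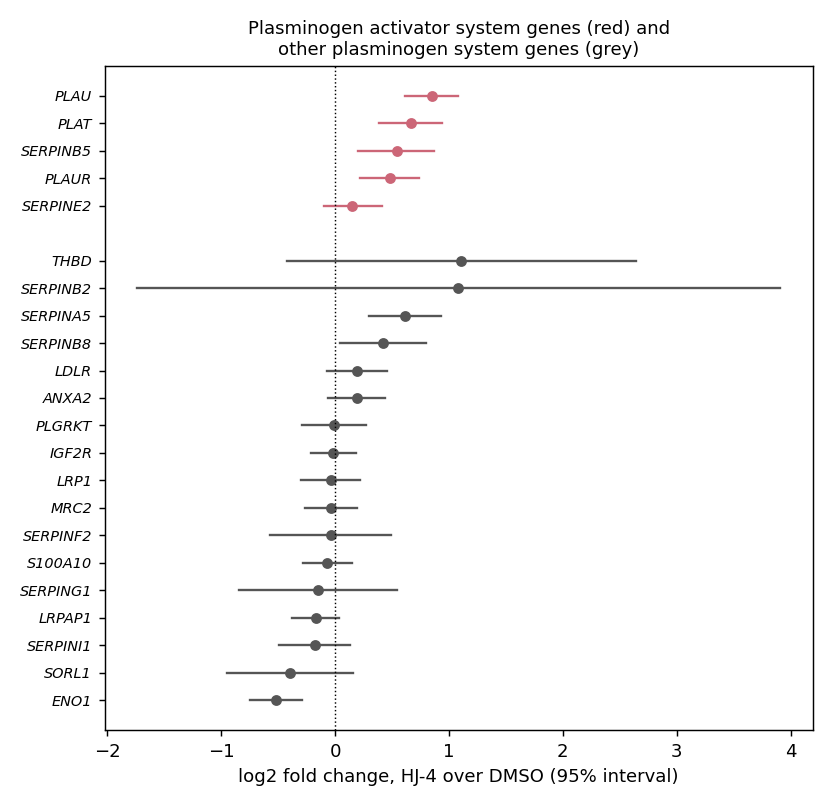
Log2 fold change (HJ-4 over DMSO) with its 95% interval from edgeR, for the 5 genes in red and other plasminogen system genes in grey. The intervals of PLAU, PLAT, SERPINB5 and PLAUR lie above 0 and that of SERPINE2 crosses it, as do the wide intervals of THBD and SERPINB2, which were under 1 CPM in each library.

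Genes around the system were summarised by role. An unadjusted p under 0.05 in edgeR was reached by 7.93% of all genes tested as higher and by 7.93% as lower. Of 9 proteases that can activate pro-urokinase, 7 were tested with a median log2 fold change of -0.03. Only the cathepsin L gene CTSL passed an unadjusted p of 0.05, with 95 and 99.1 CPM with DMSO and 114 and 115 CPM with HJ-4 (log2 fold change 0.24), while F12 and KLK4 had log2 fold changes of 0.23 and -0.48 with overlapping KLK4 libraries. On leaving out each library F12 ran from 0.08 (without HJ-4 replicate 2) to 0.37 (without HJ-4 replicate 1), and KLK4 from -1.11 to -0.04 on leaving out the same libraries. Of 18 matrix proteases and their inhibitors, 12 were tested with a median of 0.00. The collagenase gene MMP1 had 46 and 50 counts with DMSO and 106 and 147 with HJ-4, and its log2 fold change was 1.26 with a standard error of 0.25 (edgeR, adjusted p = 0.17). MMP1 shares 223 exon bases with an opposite-strand pseudogene, and ENO1, F12, EGFR, ITGB1, ELF3 and MMP9 also share exon bases with opposite-strand genes. On the same strand, ELF3 shares 664 exon bases with a lncRNA gene, and SERPINA5 shares 53 with SERPINA4 and 79 with another protein-coding gene. The gelatinase gene MMP9 went the other way with a log2 fold change of -1.06 (standard error 0.44), but on 15 to 38 counts in a library, and RECK, a membrane inhibitor of matrix metalloproteinases, was at -0.28. MMP9 was at -0.54 without DMSO replicate 2, and RECK was at -0.16 without HJ-4 replicate 1 and at -0.18 without that DMSO library.

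Membrane partners of the urokinase receptor had a median log2 fold change of 0.00 over the 14 of 16 tested. The integrin genes ITGA3 and ITGB1 were at 0.24 and 0.39, and ITGA3 alone passed an unadjusted p of 0.05. Over all genes tested, 7.93% were higher and 7.93% lower at that threshold in edgeR. For ITGB1 the DMSO libraries were far apart, at 566 and 761 CPM, below 850 and 892 CPM with HJ-4, and its log2 fold change was 0.19 without DMSO replicate 1 and 0.62 without DMSO replicate 2. EGFR was at -0.19. Of 11 other intracellular serpins, most of them of clade B like SERPINB5, 5 were tested with a median of 0.16. SERPINH1, the collagen chaperone gene, was at 0.27 and SERPINB9, the granzyme B inhibitor gene, at -0.24, both at an unadjusted p under 0.05, and SERPINB1 was at 0.16, with 0.03 without DMSO replicate 1 and 0.31 without DMSO replicate 2. The plot of log2 fold changes by list sets these genes against the range of all genes tested.

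**Figure D4:**
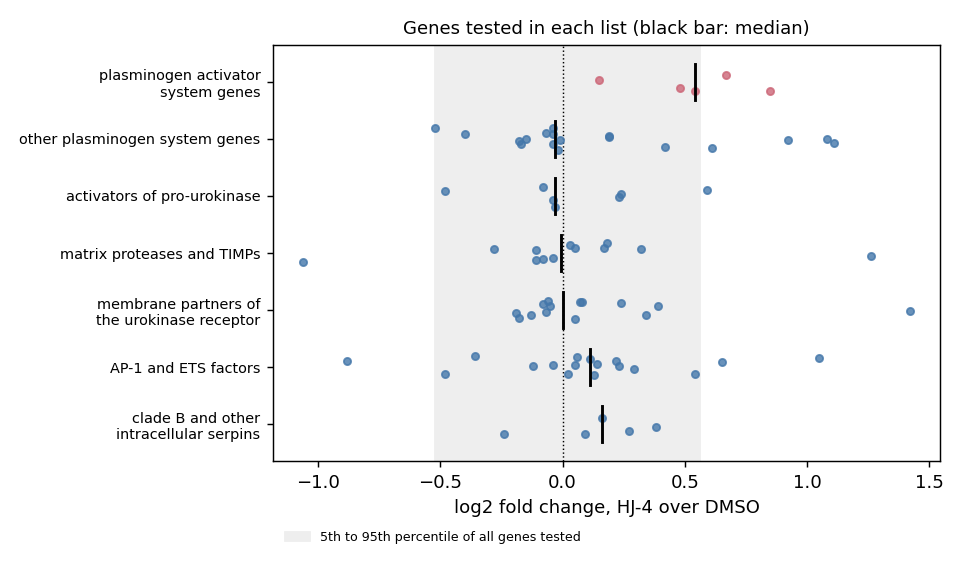
Log2 fold change (HJ-4 over DMSO) of every gene tested in each list, with points for genes and black bars for medians. The grey band holds the 5th to 95th percentiles of all 14044 genes, from -0.52 to 0.56. PLAU and PLAT lie beyond it. So do genes of other lists, among them MMP1 (1.26), FOSL1 (0.65), SERPINA5 (0.61), FOSL2 (-0.88) and MMP9 (-1.06). The median of the 5 genes (0.54) lies inside the band, and the medians of the other lists lie between -0.03 and 0.16.

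AP-1 and ETS transcription factors are known to bind the regulatory regions of PLAU and PLAUR, so their genes and the AP-1 motif were examined. The list of 17 genes held such factors and also SP1. All 17 were tested and none passed the adjusted threshold in edgeR, and the median log2 fold change was 0.11. At an unadjusted p under 0.05 in edgeR, 3 were higher and 1 was lower, beside 7.93% of all genes tested in each direction. FOSL1, the Fra-1 subunit of AP-1, was at 161 and 112 CPM with DMSO and at 208 and 222 CPM with HJ-4, and its log2 fold change was 0.65 with a standard error of 0.18 (edgeR, adjusted p = 0.24). It passed without DMSO replicate 1, the higher of the DMSO libraries for this gene, with a log2 fold change of 0.94 and an adjusted p of 0.046 from edgeR, whereas without DMSO replicate 2 these were 0.42 and 0.12. FOSB was at 5.45 to 7.01 CPM with DMSO and 8.51 to 9.59 CPM with HJ-4. ATF3, chosen after its values were seen, was at 94.5 and 44.1 CPM with DMSO and at 142 and 145 CPM with HJ-4, and the epithelial ETS factor gene ELF3 had a log2 fold change of -0.36. JUN, FOS and FOSL2, chosen after their values were seen, had log2 fold changes of -0.12, -0.48 and -0.88, and none of them passed an unadjusted p of 0.05 in edgeR. FOSL2 was at 110 and 104 CPM with DMSO and at 32.8 and 84.1 CPM with HJ-4, where the libraries were far apart.

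Of the 5 genes, 4 had promoter entries in RefSeq (GRCh38.p14), 6 in all, since PLAU and SERPINE2 each have 2 starts. The motif searched was TGANTCA, which reads the same on both strands and overlaps no other motif searched. It was found in the promoters, 250 bases before to 50 after a start, of PLAUR and SERPINB5, and 7.71% of 35116 promoters held it. In windows from 2500 bases before to 50 after the start, which 50.6% of all such windows share, the PLAU starts added a pair of matches and those of SERPINE2 none. The matches are shown because AP-1 sites near these starts are where the factors above would be looked for, 5′ to 3′ on the strand of the gene with the motif in capitals:
PLAU, chr10:73909232-73909258, plus strand, 1890 bases before the downstream start: gggagcaacaTGAATCAtgacggtccc
PLAU, chr10:73909424-73909450, plus strand, 1698 bases before the downstream start: atagcatcgcTGACTCAgtctgtcccc
PLAUR, chr19:43670339-43670365, minus strand, 186 bases before the start: cacaactccaTGAGTCAgggccgagcc
SERPINB5, chr18:63476802-63476828, plus strand, 146 bases before the start: aacttcagccTGAATCAtttctttcaa
In GENCODE v44 the first PLAU match lies in an exon and the second in an intron of longer PLAU transcripts, the PLAUR match lies in an exon of PLAUR, and the SERPINB5 match lies in no gene. A match describes letters only, and whether AP-1 binds there in these cells was not measured.

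The profiles most like those of the 5 genes were found by the Euclidean distance between mean-centred log2 CPM over the 4 libraries, among 11181 genes whose mean reached 5 CPM. With 4 libraries such a profile carries little more than a fold change and the order of the replicates. Nearest to PLAU were H2AC25, LIF and ACSS2 (distances 0.064, 0.067 and 0.068). LIF, a cytokine gene, was at 187 and 179 CPM with DMSO and at 325 and 339 CPM with HJ-4. Nearest to PLAUR were TMED7-TICAM2, which is a readthrough gene whose reads may be shared with TMED7, the autophagy receptor gene SQSTM1 and the ribosomal protein gene RPS19 (0.008, 0.014 and 0.019). SQSTM1 was at 519 and 455 CPM with DMSO and at 678 and 671 CPM with HJ-4. For PLAT they were HS3ST1, MLKL and DDN (0.052, 0.06 and 0.063), for SERPINB5 they were DHRS7, EHBP1 and PTPRM (0.017, 0.066 and 0.08), and for SERPINE2 they were NFIL3, METTL2B and POLG2 (0.014, 0.014 and 0.015). Among the 5 genes themselves, PLAU and PLAT were closest at 0.204, and PLAU and SERPINE2 farthest at 0.703.

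The direction of all 5 genes held in the 11 other fits tried, which reuse libraries that already lay apart in that direction. The calls depended on the test and on the libraries. The log2 fold change of PLAU ranged from 0.77 to 0.92, that of PLAT from 0.58 to 0.76 and that of PLAUR from 0.38 to 0.59 when a single library was left out. The adjusted p of PLAU in edgeR was 0.34 without HJ-4 replicate 1 and 0.37 without HJ-4 replicate 2, fits in which 0% of all genes passed. In the other edgeR fits that share was 0.221% with a replicate block, 0.237% without DMSO replicate 2, 0.0498% with DESeq2 size factors, 0.0427% with total counts, 0.072% with no filter and 0.0626% at a mean of at least 5 CPM. It was 0.0641% in limma-voom and 3.98% in DESeq2. DESeq2 gave PLAU an adjusted p of 2.5e-11, PLAT of 0.0012, PLAUR of 0.0061, SERPINB5 of 0.03 and SERPINE2 of 0.67.

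**Figure D5:**
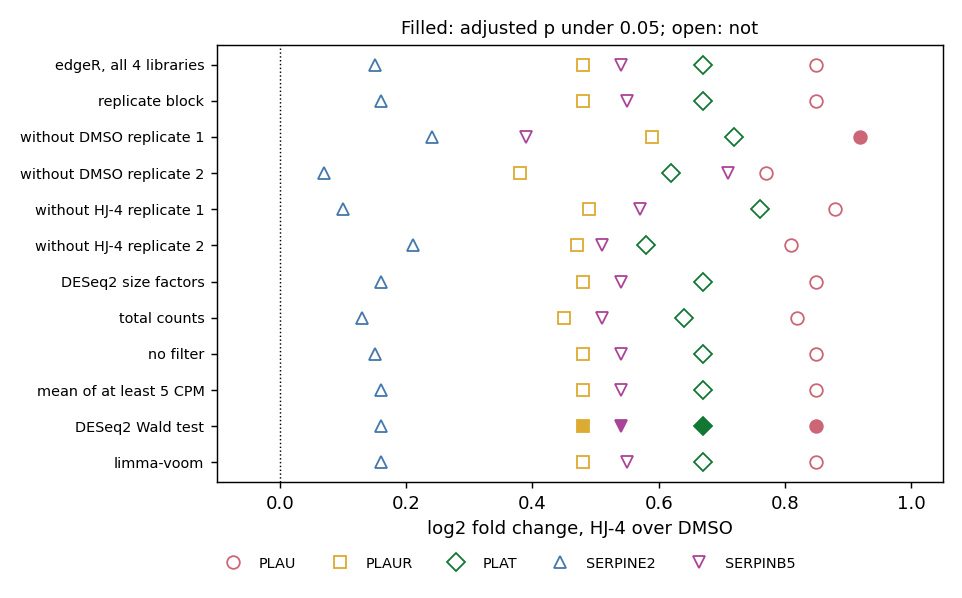
Log2 fold change (HJ-4 over DMSO) of the 5 genes in edgeR on all 4 libraries and in 11 other fits, with filled symbols where the adjusted p was under 0.05. Symbols are genes and every value lies above 0. PLAU is filled without DMSO replicate 1 and with DESeq2, and PLAT, PLAUR and SERPINB5 with DESeq2.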

How the data were processed

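RNA sequencing of 4 HCT116 libraries was analysed. The authors deposited raw counts per Ensembl gene ID, with no normalization. The study's methods name FastQC, Trimmomatic, STAR on GRCh38, featureCounts and TPM, while HISAT2, bedtools and RSEM appear in the notes of the submitters. These sources name different aligners and counters, and which of them made the counts was not settled. The annotation and strand setting are not given in them. Columns were matched by the library names in the labels, and 20148 of 20263 IDs matched GENCODE version 44. The 14044 genes kept by filterByExpr were scaled by TMM and tested in edgeR 4.0.16 (R 4.3.3) with glmQLFit and glmQLFTest, condition only, and Benjamini-Hochberg adjustment over all genes tested; standard errors were derived from the F statistic. The study's methods name limma, and edgeR was used because the values are counts. Alternatives were DESeq2 1.42.0, voom in limma 3.58.1, other scalings and filters, a replicate block and leaving out each library. The tests were first run on simulated counts. The genes and lists were chosen with earlier results of these data known. Named genes are the 5 genes, PLG, SERPINB2, SERPINF2 and VTN, the 3 of smallest p in each list and the 3 nearest profiles of each of the 5, and results for a gene that the rule also takes are not reported here. Each library was counted as a sample of its own. Chi-square over its degrees of freedom was 36.5 within the DMSO pair and 21.9 within the HJ-4 pair. Such a spread beyond counting error does not show that the libraries came from separate cultures.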

Additional observations from a re-analysis of the deposited data

How the results depend on the processing

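All 5 genes kept a positive log2 fold change in the 11 alternatives, which reuse libraries that already lay apart in that direction. Of the 5, none passed an adjusted p of 0.05 in edgeR on all libraries, also when an absolute log2 fold change over 1.2 was asked for, and 4 passed in DESeq2 (log2 fold change 0.85 for PLAU, 0.67 for PLAT, 0.48 for PLAUR and 0.54 for SERPINB5), as 4 did at an unadjusted p under 0.05 in edgeR. When each library was left out, so that the lone library of its group was assumed to vary like the other group, 0 to 1 passed, and the log2 fold change was 0.77 to 0.92 for PLAU, 0.58 to 0.76 for PLAT, 0.38 to 0.59 for PLAUR, 0.39 to 0.71 for SERPINB5 and 0.07 to 0.24 for SERPINE2. Over all genes edgeR called 7, and 88 without DMSO replicate 1, 34 without DMSO replicate 2, 0 without either HJ-4 replicate (at an unadjusted p under 0.05, 564 higher and 466 lower without HJ-4 replicate 1, and 541 and 643 without HJ-4 replicate 2), 12 with no filter and 559 with DESeq2. At an unadjusted p under 0.05, 1114 genes were higher and 1114 lower with TMM, and 923 and 1388 with total counts.

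With the replicate number as a block the adjusted p was 0.085 for PLAU, 0.18 for PLAT, 0.25 for PLAUR, 0.23 for SERPINB5 and 0.63 for SERPINE2, and edgeR called 31 genes in all. Same-numbered deviations correlated at -0.04 over genes. That value cannot settle whether same-numbered libraries shared a culture or a preparation, which no label gives.

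List medians on leaving out each library ran from 0.02 to 0.03 for the other plasminogen system genes (-0.03 with all), -0.1 to 0.07 for activators of pro-urokinase, -0.12 to 0.04 for matrix proteases and TIMPs, 0.01 to 0.08 for membrane partners, 0.05 to 0.15 for AP-1 and ETS factors with SP1 and 0.03 to 0.29 for the other serpins. The low-count filter was rerun in each of these fits, which tested 14293 to 14389 genes against 14044 with all libraries. A median can therefore move because the list held other genes. The membrane partners were at -0.03 with total counts, 0.05 with no filter and -0.05 at a mean of at least 5 CPM, where the activators of pro-urokinase were at 0.1. SERPINF2 had a log2 fold change of -0.04, which ranged from -0.27 to 0.16 on leaving out each library and turned positive without DMSO replicate 2 (0.03) and HJ-4 replicate 1 (0.16). The cause was not tested. With 2 libraries a group, a difference under the intervals given could not be shown.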

Other observations

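Of 8 epithelial marker genes tested, 5 had a log2 fold change above 0 and 3 below, and 2 were higher at an unadjusted p under 0.05 in edgeR, beside 7.93% of all genes tested. These were CDH1, the E-cadherin gene, at 83.4 and 73.5 CPM with DMSO and at 101 and 108 CPM with HJ-4 (log2 fold change 0.41, adjusted p = 0.2 from edgeR), and CDH17, an intestinal cadherin gene, with 5 and 8 counts with DMSO and 27 and 20 with HJ-4. EPCAM, KRT19 and CDX2 had log2 fold changes of -0.06, -0.02 and -0.16. Of 3 immune marker genes tested, 2 were higher at the same threshold. CD68 had a log2 fold change of 0.38, and ITGAM had 43 and 27 counts with DMSO and 92 and 79 with HJ-4, with a log2 fold change of 1.16. CSF1R, also tested, went the other way at -0.51, with 20 and 10 counts with DMSO and 14 and 9 with HJ-4. The genes named here were chosen after their values were seen.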
